A study of Zea mays with 48 samples.

Results

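The genes PLD1, PLC, lpa2 and lpa3, which act in phospholipid signalling and inositol phosphate metabolism, were followed in the maize pulvinus after plants were laid on their side. Every probe set whose gene symbol or synonym is one of these names was taken, whatever its signal, which gave 4 probe sets of the 17545 on the array, 1 for each gene. Their NCBI Gene identifiers in the annotation are 542702 for PLD1, 542162 for PLC, 732818 for lpa2 and 606457 for lpa3. All 4 passed the filter on low signals that left 10527 probe sets in the tests. PLD1 and PLC passed it with room to spare, at mean log2 signals of 10.04 and 9.38, whereas lpa2 at 6.95 and lpa3 at 7.07 lay just above the limit of 6.88.

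The pulvinus is the stem joint with which a grass shoot bends upright again. Plants of strain B73 about 6 weeks old were turned by 90 degrees, and the second pulvinus above the soil was collected after 2, 5, 15, 30 or 60 min and cut into the slowly growing upper side and the fast growing lower side. Control plants stayed vertical and their pulvini were cut into a left and a right side. Each frozen powder held the sides of 6 plants and was split for total RNA and for polysomal RNA, the RNA recovered with ribosomes. This gave 24 groups, the 12 combinations of side and time in each kind of RNA, with 2 arrays each, 1 from each of 2 growing seasons, and 48 arrays in all. Both sides of a time point in a season came from the same plants, so the 4 arrays of a time point in 1 kind of RNA stand for 2 pools of plants.

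Phospholipase D cuts membrane phospholipids such as phosphatidylcholine to phosphatidic acid, a lipid messenger, and a free head group. Phospholipase C cuts phosphoinositides to diacylglycerol and a soluble inositol phosphate, and inositol 1,4,5-trisphosphate is the messenger best known for releasing calcium inside cells. The low phytic acid genes belong to the soluble side of the same chemistry. The lpa3 gene encodes myo-inositol kinase, which adds the opening phosphate to free inositol, and lpa2 encodes an inositol phosphate kinase (ITPK1) that adds later ones on the way to phytic acid, the main phosphate store of the maize seed. In gravitropism, inositol trisphosphate and phospholipase activity are studied as links between the settling of starch grains and growth.

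The arrays were alike in scale, with median signals between 174.3 and 216.9. The polysomal arrays of the upper and lower sides at 5 min in season 1 correlated at 0.90 over probe sets, against 0.97 to 0.99 in the other 23 pairs of sides. This value cannot say which of the 2 arrays was off. In polysomal RNA at 5 min, over both seasons, 637 probe sets differed between upper and left sides and 0 between lower and right sides. The upper array of season 1 was therefore doubted, and is called the array that stood apart below. Seasons differed widely, and 56.7% of probe sets in total RNA and 55.6% in polysomal RNA differed between them. The identity of the tissue was checked on 2 marker lists, since no list that defines the pulvinus was at hand. Of 15 seed probe sets 1, for a zein gene (gz27), passed the filter, and of 13 green tissue probe sets 12 did. The summed signal of the 13 green tissue probe sets in total RNA lay between 23375.7 and 25537.5 in vertical plants and between 9386.3 and 23338.5 at 30 min.

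PLD1 held the most calls of the 4 genes. Its transcript was higher than in vertical plants at 30 and 60 min in total RNA, by 1.59-fold and 1.43-fold, and its mean level was lowest at 5 min in both kinds of RNA. With pools of plants as a random block the 30 min call held and the 60 min call did not (adjusted p = 0.180). By mean level PLC was lowest at 15 min and highest at 60 min in both kinds of RNA, with no call against vertical plants. Its calls between times were all lost with pools as a random block. The lpa3 transcript was called higher in polysomal RNA at 30 min, by 1.49-fold, a call that was lost with pools as a random block (adjusted p = 0.0947) and without any of 5 arrays. The lpa2 transcript passed no test of time or side. None of the 4 genes differed detectably between the upper and lower sides at any time.

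**Figure D1:**
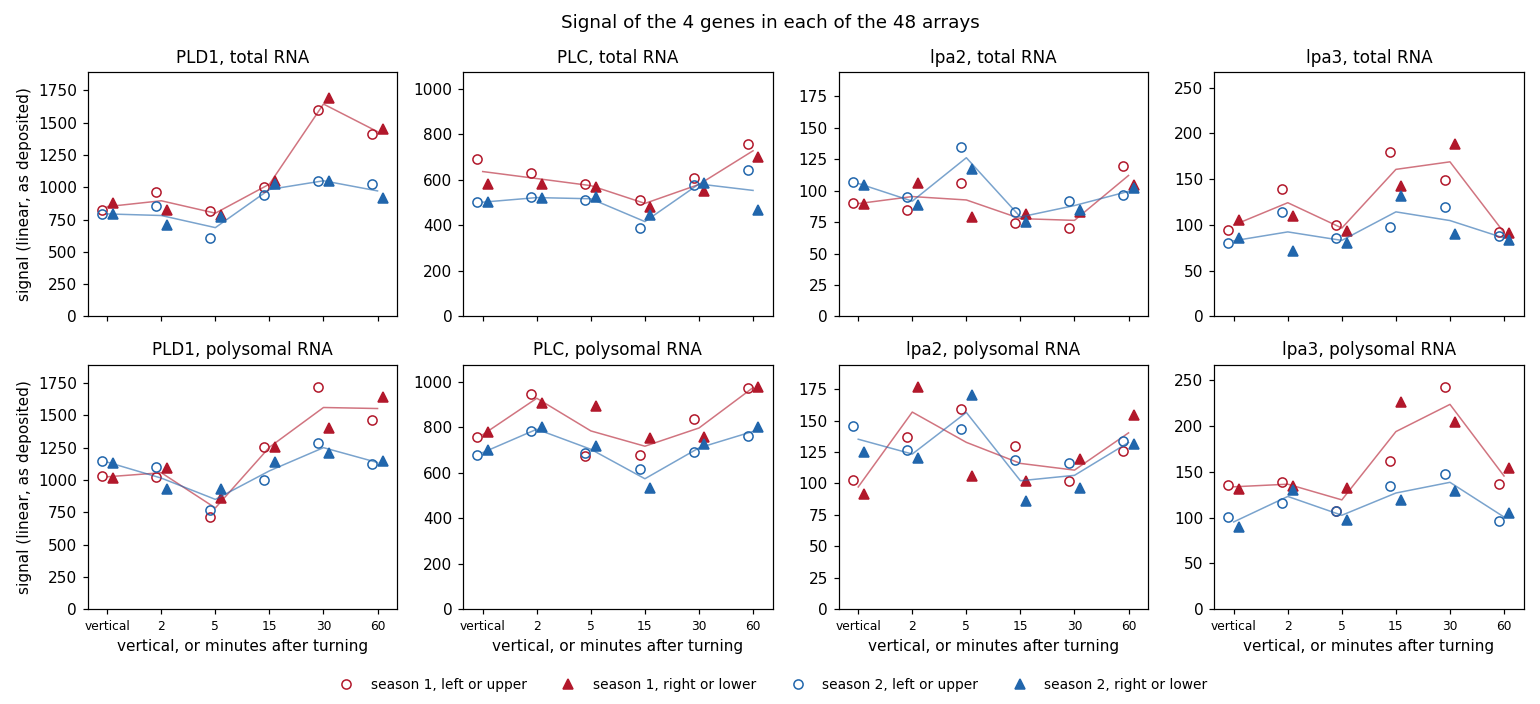
Signal of PLD1, PLC, lpa2 and lpa3 (columns) in total RNA (top) and polysomal RNA (bottom), on linear axes from 0 whose scale differs between genes, for vertical plants and 2 to 60 min after turning. Each point is 1 array, coloured by season, with open circles for left or upper sides and triangles for right or lower sides, and lines join the means of both sides in a season. PLD1 in total RNA reaches 1693.4 at 30 min in season 1 and 1050.8 in season 2, above all vertical arrays in either case.

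In total RNA the PLD1 signal of vertical plants was 823.3 on the left and 877.1 on the right in season 1, and 794.8 and 792.6 in season 2. At 2 min it was 965.6 in the upper and 825.5 in the lower side in season 1, and 852.6 and 710.2 in season 2. At 5 min it was 816.7 and 782.2 in season 1, and 605.6 and 769.4 in season 2. The arrays of 2 min overlapped the vertical ones, and those of 5 min held the lowest PLD1 signal of the series, in the upper side of season 2. At 15 min the upper and lower sides gave 1003.7 and 1045.3 in season 1 and 939.8 and 1026.2 in season 2. At 30 min they gave 1596.6 and 1693.4 in season 1 and 1050.2 and 1050.8 in season 2. At 60 min they gave 1412.6 and 1449.1 in season 1 and 1028.2 and 915.8 in season 2. From 15 min on, all 4 reoriented arrays lay above all 4 vertical arrays, as they did for 6.63% of all probe sets at 15 min, 4.68% at 30 min and 4.16% at 60 min.

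Differences are given as log2 of the signal plus 16 with the standard error (SE) of limma's contrast, and adjusted p-values were adjusted over all 10527 probe sets. PLD1 in total RNA exceeded the vertical level by 0.67 at 30 min (SE 0.12, adjusted p = 0.00598) and by 0.51 at 60 min (SE 0.12, adjusted p = 0.0308). It was the only 1 of the 4 genes called at these times in total RNA. Of all probe sets 3.31% were called higher at 30 min and 2.66% at 60 min, and counting both directions 0.0665%, 0.057%, 9.05%, 5.12% and 3.98% were called from the earliest to the latest time. At 15 min the difference of 0.28 (SE 0.12) did not pass (adjusted p = 0.159). With the pool of plants as a random block, which lets the sides of a pool vary together, the adjusted p was 0.0427 at 30 min and 0.180 at 60 min. Without single arrays the 30 min difference ranged from 0.56 to 0.77 and stayed called, and the 60 min difference missed the threshold without any of 6 arrays, 3 of them vertical, with values from 0.41 to 0.56 there.

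By season, the PLD1 difference from vertical plants in total RNA was 0.94 in season 1 and 0.40 in season 2 at 30 min, and 0.74 and 0.28 at 60 min. At 15 min it was 0.26 and 0.30. In polysomal RNA it was 0.59 in season 1 and 0.13 in season 2 at 30 min, and 0.59 and -0.0041 at 60 min. Whether the seasons differed in this response was not tested. Green tissue genes moved in the same samples. Their summed signal at 30 min was 9813.4 and 9386.3 in the upper and lower sides of season 1, against 23375.7 and 24834.4 in its vertical sides, and 21104.2 and 23338.5 in season 2, against 25537.5 and 24780.7. Of the 12 green tissue probe sets tested 1 fell at 30 min in total RNA, where 1.81% of all probe sets fell, and their median difference was -0.72, against -0.01 over all probe sets. None of the markers was at 0 in any array, and their part in the PLD1 result was not tested. In bulk tissue, fewer cells of a type and less RNA per cell cannot be told apart.

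In polysomal RNA the vertical PLD1 signals were 1033.4 and 1016.4 in season 1 and 1147.6 and 1129.9 in season 2. At 2 min they were 1021.7 and 1091 for the upper and lower sides in season 1 and 1103 and 926.7 in season 2. At 5 min all 4 arrays, at 709.8 and 857.4 in season 1 and 767.3 and 932.6 in season 2, lay below all vertical arrays, as they did for 2.41% of probe sets. The difference of -0.40 (SE 0.12) missed the threshold (adjusted p = 0.0905). At 15 min the signals were 1255.5 and 1252.8 in season 1 and 1002.3 and 1139.4 in season 2, overlapping the vertical arrays. At 30 min they were 1722 and 1401.5 in season 1 and 1290 and 1211.4 in season 2, all above the vertical arrays, as for 4.89% of probe sets. At 60 min they were 1465.7 and 1642 in season 1 and 1126.6 and 1144.3 in season 2, and season 2 overlapped its own vertical arrays. The differences of 0.36 at 30 min (SE 0.12, adjusted p = 0.0924) and 0.29 at 60 min (SE 0.12, adjusted p = 0.172) did not pass the test. None of the other genes but lpa3 at 30 min passed in polysomal RNA, where 0.057%, 2.73%, 8.22%, 5.89% and 5.23% of all probe sets were called from the earliest to the latest time.

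The largest differences of PLD1 lay between 5 min and the later times. The moderated F test, which asks whether the 5 times after turning differ from each other, gave 15.2 in total RNA (adjusted p = 0.00163) and 12.9 in polysomal RNA (adjusted p = 0.00269), tests that 17.2% and 14.5% of all probe sets passed. With pools as a random block the adjusted p-values were 0.0148 and 0.00968. Pairs of times were compared after these values had been seen. From 5 to 30 min PLD1 rose by 0.82 in total RNA (SE 0.12, adjusted p = 0.00103) and by 0.77 in polysomal RNA (SE 0.12, adjusted p = 0.00100), where 7.14% and 5.83% of all probe sets rose. From 5 to 60 min it rose by 0.66 (adjusted p = 0.00485) and 0.70 (adjusted p = 0.00259), where 4.87% and 4.64% of probe sets rose. These 4 rises stayed called with pools as a random block, with adjusted p-values from 0.00366 to 0.0427. A step from 5 to 15 min passed in polysomal RNA, at 0.50 (SE 0.12, adjusted p = 0.0169, with 4.85% of probe sets higher), and not in total RNA, at 0.43 (SE 0.12, adjusted p = 0.0526). The polysomal step missed the threshold without the array that stood apart, at 0.44 (adjusted p = 0.0792), and also without 3 others, at 0.43 to 0.50. In total RNA PLD1 also rose from 2 to 30 min by 0.65 (adjusted p = 0.00728) and from 2 to 60 min by 0.49 (adjusted p = 0.0369), neither of which held with pools as a block (adjusted p = 0.0619 and 0.197). Of all probe sets 4.78% and 2.59% rose there. The 2 to 30 min rise also missed the threshold without the lower side at 30 min in season 1 (0.54), and the 2 to 60 min rise without any of 7 arrays of these times (0.39 to 0.53).

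**Figure D2:**
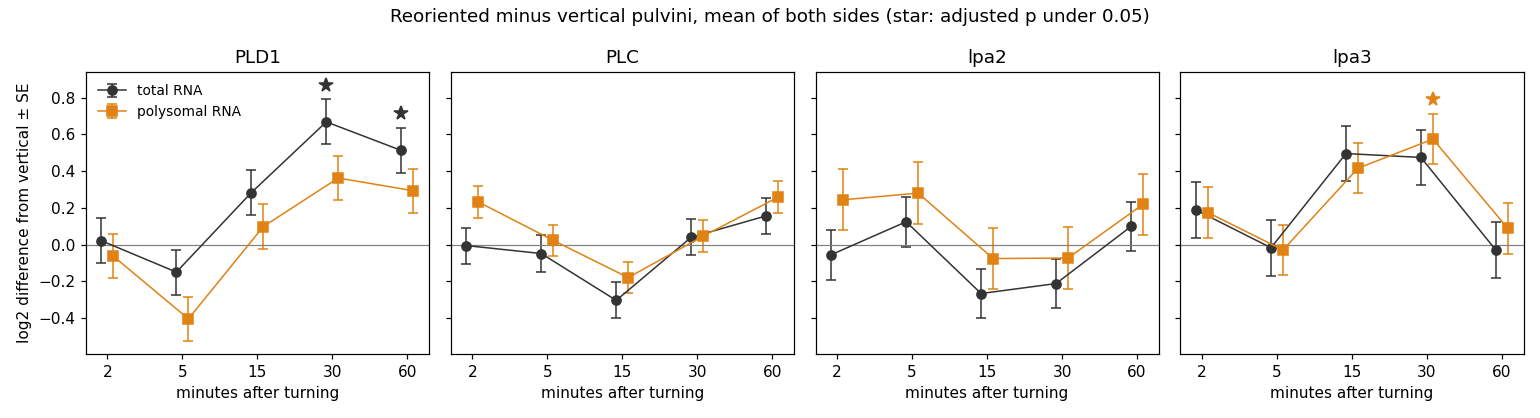
Log2 difference between reoriented and vertical pulvini, as the mean of both sides, against the minutes after turning, for the 4 genes in total RNA (circles) and polysomal RNA (squares), with bars of 1 SE. Stars mark an adjusted p under 0.05, which PLD1 reached at 30 and 60 min in total RNA (0.67 and 0.51) and lpa3 at 30 min in polysomal RNA (0.57).

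PLC, the phosphoinositide-cutting phospholipase, changed along another course. In total RNA its vertical signals were 693 and 580.5 in season 1 and 501 and 503.1 in season 2. At 15 min the upper and lower sides gave 511.7 and 481.6 in season 1 and 386.6 and 446.8 in season 2, below both vertical arrays of the same season in each case, as for 14.2% of probe sets, while the seasons overlapped. At 60 min they gave 757 and 699.2 in season 1 and 641.6 and 466 in season 2, and the lower side of season 2 lay below the vertical arrays. At 2 min the PLC signals were 630.2 and 581.7 in season 1 and 523.1 and 521.4 in season 2, and at 5 min they were 581.9 and 567.9 in season 1 and 511.3 and 522.9 in season 2. At 30 min they were 608.8 and 551.2 in season 1 and 575.7 and 588.5 in season 2. All 3 times overlapped the vertical arrays.

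Against vertical plants the PLC difference in total RNA ran from -0.30 at 15 min (SE 0.10, adjusted p = 0.0679) to 0.16 at 60 min, and no time passed. Among the 5 times the moderated F was 5.97 (adjusted p = 0.0334), and the 15 to 60 min difference of 0.46 (SE 0.10) passed with an adjusted p of 0.0110, as did that of 3.48% of probe sets in this direction. With pools as a random block the adjusted p-values were 0.298 and 0.136. The F test also missed the threshold without any of 10 arrays, and the 15 to 60 min difference without the lower side at 60 min in season 1 (0.37) or the upper side at 15 min in season 2 (0.41).

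In polysomal RNA the PLC signals of vertical plants were 756.3 and 777.3 in season 1 and 678.8 and 697.4 in season 2. At 2 min they were 945.9 and 908.2 for the upper and lower sides in season 1 and 782.7 and 799 in season 2. All 4 lay above all vertical arrays, as for 2.44% of probe sets, yet the difference of 0.23 (SE 0.09) did not pass (adjusted p = 0.278). At 15 min the signals were 678.5 and 753.8 in season 1 and 614.3 and 531.9 in season 2. At 60 min they were 970.2 and 977.3 in season 1 and 760.9 and 801.4 in season 2. Within each season the arrays of 15 min lay below both vertical arrays, as for 12.6% of probe sets, and those of 60 min above both, as for 12% of probe sets. The difference from vertical plants was -0.18 at 15 min (adjusted p = 0.218) and 0.26 at 60 min (adjusted p = 0.0923).

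The polysomal F among the 5 times was 8.69 (adjusted p = 0.0118) for PLC. PLC fell from 2 to 15 min, by 0.41 on the log2 scale (SE 0.09, adjusted p = 0.00859, with 1.85% of probe sets lower), and rose from 15 to 60 min by 0.44 (SE 0.09, adjusted p = 0.00655, with 1.96% higher). With pools as a random block the adjusted p-values of these 3 tests were 0.0876, 0.0592 and 0.0521. The fall also missed the threshold without the lower side at 15 min in season 2, at -0.34.

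Of the phytic acid genes, lpa3, the inositol kinase at the entry of the pathway, passed the test against vertical plants once, at 30 min in polysomal RNA. Its vertical signals in polysomal RNA were 136.2 and 131.2 in season 1 and 101 and 89.6 in season 2. At 15 min the upper and lower sides gave 161.9 and 226.2 in season 1 and 134.2 and 119.6 in season 2. At 30 min they gave 243 and 204.6 in season 1 and 148 and 129.2 in season 2. Within each season all arrays of both times exceeded the vertical ones, as for 12.3% of probe sets at 15 min and 11.6% at 30 min, while season 2 overlapped the vertical arrays of season 1. The difference was 0.42 at 15 min (SE 0.14, adjusted p = 0.0758) and 0.57 at 30 min (SE 0.14, adjusted p = 0.0226), where 4.01% of all probe sets were called higher. With pools as a random block the adjusted p at 30 min was 0.0947. The call was also lost without any of 5 arrays, the 2 of season 1 at 30 min and 3 vertical ones, with values from 0.50 to 0.60. It was 0.68 in season 1 and 0.47 in season 2. In polysomal RNA 4 of 12 green tissue probe sets fell at 30 min, where 1.88% of all probe sets fell, with summed signals from 11859 to 24725 against 25635.3 to 28688.5 in vertical plants, and their part in the lpa3 result was not tested.

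In total RNA the lpa3 signals were 94.5 and 105.1 in the vertical sides of season 1 and 80.1 and 85.2 in those of season 2. At 15 min they were 179.4 and 142 in the upper and lower sides of season 1 and 97.2 and 131.3 in season 2. At 30 min they were 149.2 and 188.7 in season 1 and 119.9 and 89.6 in season 2. The reoriented arrays again exceeded the vertical ones within each season, as for 12.1% of probe sets at 15 min and 11.4% at 30 min. The differences of 0.50 at 15 min (SE 0.15, adjusted p = 0.0541) and 0.47 at 30 min (SE 0.15, adjusted p = 0.0845) did not pass. At 2 min lpa3 ranged more widely, with 139.3 and 109.2 in season 1 and 113.6 and 71.1 in season 2. At 5 min the signals were 99.5 and 93.6 in season 1 and 85.8 and 80.3 in season 2, and at 60 min they were 92.1 and 91.2 in season 1 and 87.7 and 83.6 in season 2. Both times overlapped the vertical arrays, with differences of -0.02 and -0.03. In polysomal RNA lpa3 gave 106.9 and 131.9 at 5 min in season 1 and 107.7 and 97.5 in season 2, which also overlapped the vertical arrays.

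The F among the 5 times was 5.69 for lpa3 in total RNA (adjusted p = 0.0377) and 6.51 in polysomal RNA (adjusted p = 0.0288). From 5 to 30 min lpa3 rose by 0.49 in total RNA (SE 0.15, adjusted p = 0.0430) and by 0.60 in polysomal RNA (SE 0.14, adjusted p = 0.0111), in the same comparisons as PLD1. None of these 4 tests held with pools as a random block, where the adjusted p-values were 0.369, 0.135, 0.251 and 0.0510. The polysomal rise missed the threshold without the array that stood apart, at 0.49 (adjusted p = 0.0557), and without either array of 30 min in season 1, at 0.53 and 0.55. Without single arrays the total RNA rise was lost in 11 cases, at 0.32 to 0.53, and F in 15 cases in total RNA and 7 in polysomal RNA. With all 17545 probe sets tested, the adjusted p of F was 0.0618 in total RNA and 0.0511 in polysomal RNA, and that of the 5 to 30 min rise in total RNA was 0.0664, while the polysomal calls at 30 min and from 5 to 30 min were kept.

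The other phytic acid kinase gene, lpa2, gave no call against vertical plants or between times. In total RNA its vertical signals were 89.9 and 89.6 in season 1 and 106.8 and 104.8 in season 2, and those after turning lay between 70.1 and 135.1. At 15 min its 4 arrays, at 74.1 and 81.5 in season 1 and 83.3 and 74.9 in season 2, lay below all vertical arrays, as for 5.83% of probe sets. The difference of -0.27 (SE 0.14) did not pass (adjusted p = 0.228). Over the 5 times the lpa2 difference ran from -0.27 to 0.12 in total RNA and from -0.08 to 0.28 in polysomal RNA, and its F missed the threshold (adjusted p = 0.117 and 0.251). In polysomal RNA its signals ranged from 91.3 to 145.4 in vertical plants and from 85.9 to 176.9 after turning, so the groups overlapped. The highest of these lpa2 signals were the lower side at 2 min in season 1 (176.9) and the lower side at 5 min in season 2 (170), each beside an upper side that was lower, at 136.7 and 143. The next highest went the other way, with the upper side at 5 min in season 1 (159.2) beside a lower side of 106.2.

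Averaged over the 5 times, none of the 4 genes passed the test against vertical plants, which 3.53% of probe sets passed in total RNA and 4.31% in polysomal RNA. In total RNA the mean difference was 0.27 for PLD1 (95% interval 0.06 to 0.47, adjusted p = 0.128), -0.03 for PLC (-0.19 to 0.13), -0.06 for lpa2 (-0.29 to 0.16) and 0.22 for lpa3 (-0.03 to 0.47). In polysomal RNA it was 0.06 for PLD1 (-0.14 to 0.26), 0.08 for PLC (-0.06 to 0.22), 0.12 for lpa2 (-0.16 to 0.39) and 0.24 for lpa3 (0.02 to 0.47, adjusted p = 0.204). All these intervals count the sides of a pool as separate arrays. Sides of a pool varied together, at a correlation of 0.57 in total and 0.38 in polysomal RNA, so the intervals are too narrow. The averages join times at which PLD1 and PLC lay on opposite sides of the vertical level.

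Ordered by mean level, PLD1 in total RNA was highest at 30 min, followed by 60, 15 and 2 min, vertical plants and 5 min. In polysomal RNA the PLD1 order was 30, 60 and 15 min, vertical plants, 2 min and 5 min. PLC went from 60 min at the top to 15 min at the bottom in both kinds of RNA. The lpa3 order began with 15 and 30 min in total RNA and with 30 and 15 min in polysomal RNA, and lpa2 began with 5 min and ended with 15 min in both. Of the 40 pairs of neighbours in these orders none passed the adjusted test, and 4 had an unadjusted p under 0.05, so neighbouring places could not be told apart. Some distant places were told apart for PLD1, PLC and lpa3, and with pools as a random block for PLD1 only. For lpa2 no places were told apart.

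The sides of the bending pulvinus were compared because its lower side elongates faster. Lower minus upper, averaged over the 5 times, was -0.01 for PLD1 in total RNA (95% interval -0.17 to 0.16), -0.07 for PLC (-0.20 to 0.07), -0.04 for lpa2 (-0.22 to 0.15) and -0.11 for lpa3 (-0.31 to 0.09). In polysomal RNA it was 0.04 for PLD1 (-0.13 to 0.20), 0.04 for PLC (-0.08 to 0.15), -0.05 for lpa2 (-0.28 to 0.17) and 0.04 for lpa3 (-0.14 to 0.23). At single times the 4 genes ran from -0.44 to 0.14 in total RNA and from -0.35 to 0.27 in polysomal RNA. None of these 40 differences passed, nor did any of the 40 that subtract the right minus left difference of vertical plants, and none of the 80 had an unadjusted p under 0.05. In the background limma called no probe set in total RNA at any time (79 to 261 had an unadjusted p under 0.05). In polysomal RNA it called 298 at 5 min, or 2.83%, a comparison that holds the array that stood apart. At the other times it called none in polysomal RNA (53 to 181 under 0.05). The model counted the sides of a pool as separate arrays. Within pools they varied together, at a correlation of 0.57 in total and 0.38 in polysomal RNA. These side tests are therefore too cautious, with intervals that are too wide, and can miss a difference. With pools as a random block, no lower minus upper mean of the 4 genes gained a call in either RNA.

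The polysomal over total ratio of each transcript was read within powders, since both RNAs of a powder come from the same tissue. Each array is scaled to a common level, so a value above 0 is relative to the level of the arrays as a whole and is not a count of ribosomes. Over all 24 powders the log2 difference of polysomal minus total signal averaged 0.45 for PLC (SE 0.04), 0.35 for lpa2 (SE 0.04), 0.29 for lpa3 (SE 0.05) and 0.21 for PLD1 (SE 0.03). It was above 0 in 24 of 24 powders for PLC and lpa2, in 22 for PLD1 and in 21 for lpa3. All 4 genes were called higher in polysomal RNA, with adjusted p-values from 1.5e-08 to 0.000111, as were 42.1% of all probe sets. In vertical plants alone PLD1 at 0.39 (SE 0.09, adjusted p = 0.00228) and PLC at 0.35 (SE 0.09, adjusted p = 0.00535) were called, as were 20.3% of probe sets. PLC missed the threshold there without the left side of season 2, at 0.27 (adjusted p = 0.0744). The vertical values of lpa2, 0.20 (adjusted p = 0.100), and lpa3, 0.27 (adjusted p = 0.109), did not pass.

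**Figure D3:**
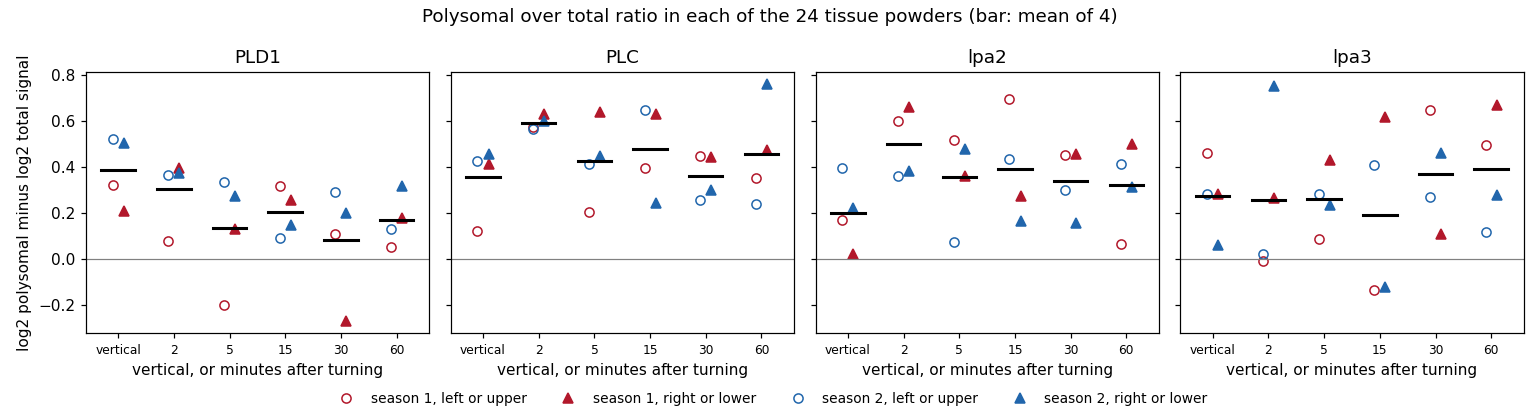
Log2 polysomal minus log2 total signal in each of the 24 tissue powders, for the 4 genes, against vertical or minutes after turning. Colours mark the season and symbols the side as in the plot of signals, and black bars are means of 4 powders. PLC and lpa2 stay above 0 in all 24 powders, and the PLD1 means after turning all lie below its vertical mean of 0.39.

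This ratio was not shown to change after turning. For PLD1 it was below that of vertical plants at all 5 times, by 0.08 to 0.31 on the log2 scale, and the mean over the times was -0.21 (SE 0.09, 95% interval -0.41 to -0.01, unadjusted p = 0.0388, adjusted p = 0.997). All 5 differences subtract the same vertical mean, from 2 pools of plants, so they are not separate observations. The mean change was 0.11 for PLC (-0.10 to 0.31), 0.18 for lpa2 (-0.04 to 0.40) and 0.02 for lpa3 (-0.28 to 0.32). The ratios of the sides of a pool also varied together (correlation 0.20), so these intervals and that of PLD1 are too narrow. No member passed at any time, and limma called none (0%) of the 10527 probe sets at any of the 5 times, with 309 to 973 at an unadjusted p under 0.05. The moderated F of the ratio among the 5 times gave adjusted p-values from 0.779 to 0.908 for the 4 genes. Over all probe sets this F called none, and between 0 and 815 when 1 powder was left out. From 5 to 30 min 1 probe set was called, and between 0 and 1519 without 1 powder. Against vertical plants at 15 and 30 min the count stayed at 0 without any single powder. The lack of ratio calls among the times therefore rests in part on single powders.

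The seasons differed for 3 of the 4 genes. Each season was a single repetition, so season cannot be told apart from anything else that differed between the repetitions. In total RNA, season 2 lay below season 1 for PLD1, at -0.29 (SE 0.07, adjusted p = 0.00252), for PLC at -0.22 (SE 0.06, adjusted p = 0.00396) and for lpa3 at -0.33 (SE 0.09), as for 33.4% of probe sets. In polysomal RNA it lay below for PLC, at -0.22 (SE 0.05), and lpa3, at -0.40 (SE 0.08), as for 30.2% of probe sets, and PLD1 at -0.13 did not pass. For lpa2 the season difference was 0.10 in total RNA and 0.01 in polysomal RNA, neither of which passed. The model counted the sides of a pool as separate arrays, although they varied together (correlation 0.57 in total and 0.38 in polysomal RNA). The SEs and p-values of the season differences are therefore too small, also those behind the shares of all probe sets.

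The 12 group means share scaling and seasons, and the sides of a pool share plants. Across these means lpa2 and lpa3 ran in opposite directions, with a Pearson correlation of -0.85 in total RNA and -0.59 in polysomal RNA. Both genes lay just above the limit of the filter, and lpa2 passed no test of time. PLD1 and lpa3 correlated at 0.52 and 0.66, and PLD1 and PLC at 0.26 and 0.21. Among 916 other probe sets with a single named gene, the 1 most like PLD1 was expA4, an expansin gene of cell wall loosening, in total RNA (r = 0.95) and in polysomal RNA (r = 0.91). PLC was most like hsp18f in total RNA (r = 0.92) and lon1 in polysomal RNA (r = 0.93). The probe set most like lpa2 was that of Lsi6 (r = 0.90) and then mbd101 (r = 0.83), and lpa3 was most like bip2 (r = 0.90) and then vp9 (r = 0.96), in total and polysomal RNA. These correlations over few means describe the profiles and carry no test.

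Other enzymes and carriers of phospholipids and inositol gave no call against vertical plants. Of 12 probe sets on this list 8 passed the filter, and none rose or fell against vertical plants at any time in either RNA. From 5 to 30 min, however, lpa1 and plt2 rose in total RNA, by 0.42 (SE 0.13, adjusted p = 0.0428) and 0.45 (SE 0.12, adjusted p = 0.0225), and plt2 rose in polysomal RNA, by 0.40 (SE 0.11, adjusted p = 0.0326). Of all probe sets 7.14% rose there in total RNA and 5.83% in polysomal RNA. This pair of times was compared after values had been seen. The list was not tested with pools as a random block or without single arrays. The median difference of the 8 probe sets from vertical plants at 30 min was 0.19 in total RNA and 0.26 in polysomal RNA, against -0.01 and -0.02 over all probe sets. PEAMT, which methylates phosphoethanolamine on the way to choline, came nearest, with 1.48 at 30 min in total RNA (SE 0.44, adjusted p = 0.0646), and it also differed most between seasons, by 2.64 (SE 0.25). The transporter gene lpa1, whose mutants are also low in phytic acid, ran from -0.25 to 0.22 against vertical plants, and PIS, the phosphatidylinositol synthase that makes the precursor of PLC substrates, from -0.12 to 0.11. INO1, which makes inositol from glucose 6-phosphate, missed the filter.

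The list of calcium sensors and binding proteins held some calls. Of 14 probe sets tested 2 rose in total RNA at 15 min and 2 at 30 min, and none fell. CDPK1, a calcium-dependent protein kinase gene, rose by 2.02 at 15 min (SE 0.23) and 1.26 at 30 min (SE 0.23, adjusted p = 0.00526), CaM1, a calmodulin gene, by 0.55 at 15 min (adjusted p = 0.0234), and rcalm by 0.53 at 30 min (adjusted p = 0.00180). At 15 and 30 min 5.12% and 3.31% of all probe sets rose. In polysomal RNA CDPK1 rose at 15, 30 and 60 min and was the only 1 of the 14 to pass against vertical plants, where 5.28%, 4.01% and 3% of all probe sets rose. Of 10 probe sets for enzymes that turn fatty acids into oxylipins such as jasmonate, 2 rose in total RNA at 60 min, aos1 by 1.14 (SE 0.16, adjusted p = 0.00160) and opr7 by 0.49 (SE 0.11, adjusted p = 0.0212), beside opr1 at 15 min and aos1 at 30 min. At 60 min 2.66% of all probe sets rose. In polysomal RNA opr1 rose at 15 min, by 0.84, and 3 of the 10 rose at 60 min, aos1 by 0.98, opr7 by 0.55 and 1 probe set of aoc1 by 0.51. At 5 min in polysomal RNA aos1 fell, by 1.08 on the log2 scale (SE 0.18), and the 2 probe sets of aoc1 went apart, at 0.47 and -0.76, in a comparison that holds the array that stood apart. There 1.22% of all probe sets rose and 1.51% fell.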

How the data were processed

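For 48 arrays and 17545 probe sets the authors deposited linear signal intensity values, made with GCOS per the submitters' processing notes. The version and the scaling target are not given in the sources used here. Its 2% trimmed means lay between 495.8 and 499.1, so it was used as deposited. No detection calls were used, and the number of arrays limits the precision. Probe sets were named through GEO's platform annotation and RefSeq synonyms, where 1452 have 1 gene, 1 has several and 16092 have none.

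Values were log2(signal + 16). Probe sets under the 40th percentile of the mean were left out. limma 3.58.1 (R 4.3.3, statmod 1.5.0) was fitted on 24 total arrays, 24 polysomal arrays and 24 polysomal minus total differences. Its model (lmFit, then eBayes with trend) held a term for each of 12 groups and 1 for the season. Each fit had 11 residual degrees of freedom, and p-values were Benjamini-Hochberg adjusted at 0.05. The labels' repetition number was read as the season, which pairs the arrays. Season differences of 2 groups correlated at a median r of 0.62 in total and 0.66 in polysomal RNA over 66 pairs of groups. Single pairs ran from 0.50 to 0.89 in total RNA and from -0.03 to 0.90 in polysomal RNA. The model treats the sides of a pool as separate arrays. The fit was tested on simulated total RNA arrays that were drawn independently. That test does not show how the fit behaves when sides of a pool vary together.

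The members and lists were chosen with earlier results of these data known. Each member was named, with its test wherever it passed in the model above or an alternative. The lists of phospholipid and inositol, calcium, oxylipin, green tissue and seed genes had been defined by gene descriptions. They were rebuilt from symbols and gene IDs, since the annotation tables used here have no descriptions. Alternatives were other pseudocounts, no filter, quantile normalization, no season block, the pool as a random block and leaving out each array. Comparisons between pairs of times, counts of arrays that do not overlap, and the pool block without the array that stood apart were added after the values had been seen.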

Additional observations from a re-analysis of the deposited data

Results flagged for a closer look

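The response to turning differed between time points for 3 of the 4 genes, by the moderated F test of the difference itself, which 17.2% of all probe sets passed in total RNA and 14.5% in polysomal RNA. F was 15.2 for PLD1, 5.97 for PLC and 5.69 for lpa3 in total RNA, and 12.9, 8.69 and 6.51 in polysomal RNA. With pools of plants as a random block PLD1 kept its call in both kinds of RNA, and PLC and lpa3 kept it in neither. Groups of 2 arrays were too small to look for outlying arrays within them.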

How the results depend on the processing

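Of 51 results for the 4 genes, 27 passed the threshold, and both other pseudocounts changed no call. The fit without the replicate block, that is without the season, lost 17 calls: PLD1 in total RNA at 30 min (0.67, adjusted p = 0.131), 60 min (0.51), 2 to 30 min (0.65), 2 to 60 min (0.49), 5 to 60 min (0.66) and F (6.76), and in polysomal RNA 5 to 15 min (0.50), PLC F (2.83 total, 3.63 polysomal), 15 to 60 min (0.46, 0.44) and 2 to 15 min (-0.41), and lpa3 polysomal 30 min (0.57), 5 to 30 min (0.49, 0.60) and F (2.86, 2.35). Pools as a random block lost 13 of these, with the same differences and F of 2.93 and 5.20 for PLC and 2.45 and 4.28 for lpa3. With the polysomal array that stood apart also left out, F was 5.09 for PLC and 3.18 for lpa3, 5 to 15 min was 0.47 for PLD1, 5 to 30 min was 0.50 for lpa3, and its lower minus upper mean turned to -0.000401. Without the filter lpa3 lost F (5.26 total, 5.89 polysomal) and 5 to 30 min in total RNA (0.49). Quantile normalization lost lpa3 total F (4.58) and 5 to 30 min (0.38), brought calls for lpa2 from 5 to 30 min (-0.47) and lpa3 from 15 to 60 min (-0.59) in total RNA and for the vertical lpa2 ratio (0.27), and turned the mean change of the lpa3 ratio to -0.037. The causes were not tested.

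Leaving out single arrays gave these ranges where a call or sign changed. PLD1 ran from 0.41 to 0.61 at 60 min, 0.54 to 0.75 from 2 to 30 min, 0.39 to 0.59 from 2 to 60 min and 0.43 to 0.57 from 5 to 15 min in polysomal RNA. PLC F in total RNA ran from 3.62 to 8.22, its 15 to 60 min difference from 0.37 to 0.56, the polysomal 2 to 15 min one from -0.49 to -0.34 and its vertical ratio from 0.27 to 0.44. For lpa3 the 30 min polysomal difference ran from 0.50 to 0.65, F from 4.45 to 9.25 in total and 4.58 to 8.23 in polysomal RNA, 5 to 30 min from 0.32 to 0.66 and 0.49 to 0.71, and 15 to 60 min from -0.65 to -0.40. Uncalled means that changed sign were lower minus upper for PLD1 (-0.049 to 0.036 total, -0.0051 to 0.079 polysomal), lpa2 (-0.079 to 0.0058, -0.12 to 0.012) and lpa3 (-0.0066 to 0.089 polysomal), reoriented minus vertical for PLC (-0.10 to 0.032 total) and PLD1 (-0.019 to 0.13 polysomal), and the lpa3 ratio (-0.018 to 0.063).

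Counts over all probe sets fell with both designs. At 30 min in total RNA 539 became 87 without the season and 113 with pools as a block, at 60 min 419 became 28 and 34, and by F 1806 became 344 and 393. In polysomal RNA 620 at 30 min became 136 and 258, and 1531 by F became 363 and 617. Leaving out 1 array moved these counts to between 151 and 613, 127 and 428, and 1237 and 1879 in total RNA and to between 222 and 801, and 1041 and 1991 in polysomal RNA, so the shares of all probe sets given beside the 4 genes rest in part on single arrays. Signals near the lower limit restrict what can be read for lpa2 and lpa3.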
